A study of Mus musculus with 45 samples.

Results

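RA-treated neuroepithelial organoids collected at 78 h were compared with RA-treated organoids collected at 42 h, across all genes measured. The comparison was defined by sample labels alone and used 6 of the 45 libraries of the series, 3 from each time. The organoids were grown in Matrigel from R1 mouse embryonic stem cells, a line derived from the early embryo, in N2B27, a serum-free medium in which such cells turn into neural epithelium. All-trans RA was given from day 2 of differentiation, at 250 nM by the series design and the study's methods (the protocol text of the sample labels prints the micromolar unit and slightly later hours for the last time points, and the titles were followed here). Both groups carried the same cells, matrix, medium and RA, and differed in the hour of collection. The RA-treated organoids of 54 h and 66 h served as a check on the course between the ends, and untreated organoids of 42 h and 78 h, which received no RA, were the reference for change over the same hours (3 libraries in each of these 4 groups). Each library pooled many organoids grown from a single stem cell line, so the 3 libraries of a group measured the spread between samples of 1 line, and no source used here ties replicates to separate derivations of it.

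RA is a small signalling molecule made from vitamin A, which enters the nucleus and binds receptors that sit on DNA and switch genes on. In the neural tube, the embryonic forerunner of brain and spinal cord, RA gives cells a hindbrain and spinal cord identity, in part by switching on Hox genes in an ordered series, and it favours the exit of progenitors into neurons. Cells answer RA with enzymes such as Cyp26a1 that destroy it, so a pulse of the signal is normally limited in time. Progenitors of the neural tube express Notch target genes such as Hes5, while neighbouring cells that leave the cycle switch on proneural factors, then genes of axons and synapses.

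Total counts per library lay between 20703819 and 25261063 at RA 42 h and between 27862239 and 33546744 at RA 78 h. The time of collection went together with the run of library numbers in the sample titles: the RA 42 h and RA 54 h libraries carried numbers of an earlier run, and the RA 66 h and RA 78 h libraries of a later one, so that time and run cannot be told apart in the comparison of 78 h with 42 h alone. A contrast made of 2 steps that each stay within a run (42 h to 54 h plus 66 h to 78 h) and the difference from untreated organoids, whose 42 h and 78 h libraries fall in the same runs, are given beside it. Replicates differed by more than sampling noise in every group, by a chi-square that averaged 2.43 to 14.8 per gene over the pairs of the RA groups, and in each group 1 pair was closer than the others: RA 42 h replicates 1 and 2 (3.64), and replicates 2 and 3 of RA 54 h (2.43), RA 66 h (3.76) and RA 78 h (5.07). The progenitor marker Sox2 was at 197, 204 and 211 CPM (TMM-scaled counts relative to library size) at RA 42 h and 257, 228 and 219 CPM at RA 78 h, and Sox1 and Pax6, which with Sox2 mark neural epithelium, were at 93.8 CPM or more in all 6 libraries.

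Of 16702 genes with enough counts to test, 772 (4.62%) rose and 440 (2.63%) fell by more than 2-fold from RA 42 h to RA 78 h (edgeR's quasi-likelihood test, Benjamini-Hochberg adjusted p under 0.01, log2 fold change over 1 in size). The 10 largest rises under the naming rule were those of 4 Serpinb9 genes, Nhlh2, Cdh5, Robo3, Csf1r, Sst and Syna, and the largest falls those of the Wnt antagonist Sfrp5, ccdc198 and the metalloproteinase gene Tll1. The median over all genes was -0.01 on the log2 scale, which the scaling of the libraries holds near 0. The number of falls moved with single libraries. It was 293 without RA 78 h replicate 2 and 297 without RA 42 h replicate 2, and up to 466 without RA 78 h replicate 1. Between 636 and 735 genes rose with any 1 library left out.

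**Figure D1:**
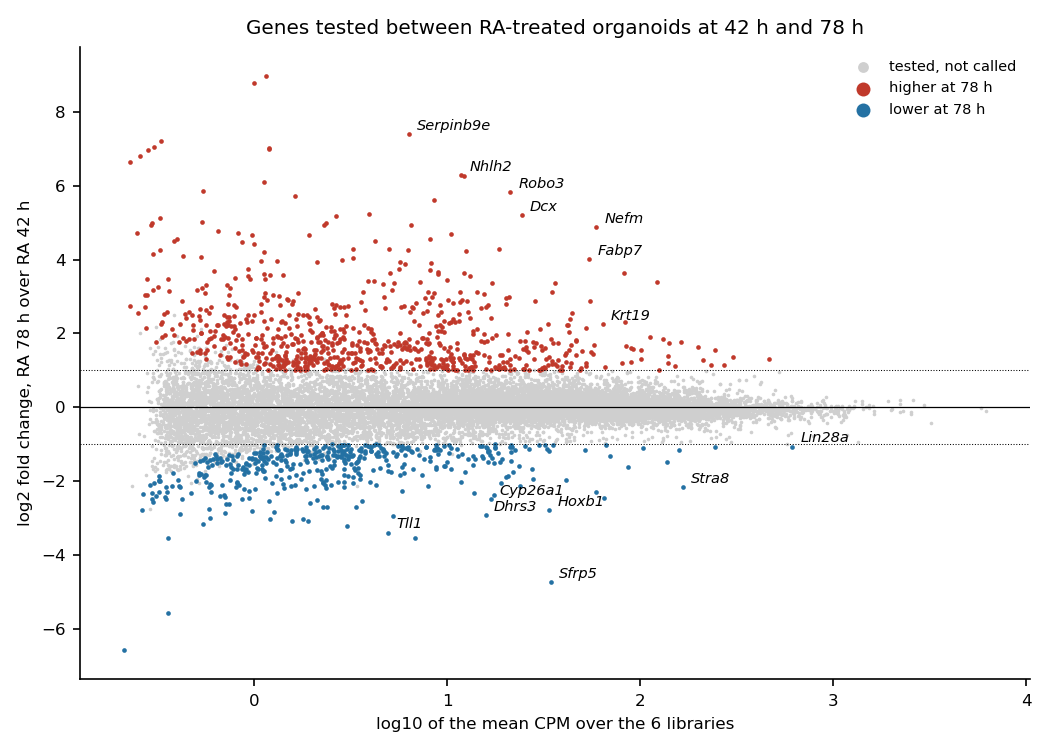
Each point is 1 of the 16702 genes tested, placed by its mean level over the 6 libraries (log10 CPM, x axis) and its log2 fold change from RA 42 h to RA 78 h (y axis), with genes that passed the test in colour. Rises (772) outnumber falls (440), and the cloud is centred at -0.01.

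The libraries between the ends followed the same course for most of these genes. The 54 h and 66 h means both lay between the 42 h and 78 h means in 664 of the 772 genes that rose (86%) and in 375 of the 440 that fell (85.2%), against 4767 of the 15490 genes that did not pass (30.8%). The called genes were picked for a wide gap between these same end means, so their higher share is partly built in. The middle interval, from 54 h to 66 h, is the one that crosses the runs of library numbers. Over the rising genes the median step was 0.61 on the log2 scale from 42 h to 54 h, 0.67 from 54 h to 66 h and 0.51 from 66 h to 78 h. Over the falling genes the median steps were -0.74, -0.35 and -0.40, so that the first interval held the largest step. The first and last steps include the end libraries by which the genes were picked, and the middle step does not. In one fit of the 12 RA libraries (17424 genes tested), 87 genes rose (0.499%) and 112 fell (0.643%) from 42 h to 54 h, 174 rose (0.999%) and 42 fell (0.241%) from 54 h to 66 h, and 22 rose (0.126%) and 2 fell (0.0115%) from 66 h to 78 h. These step counts moved with single libraries. The 112 falls of the first step dropped to 38 without RA 42 h replicate 2, 45 without RA 42 h replicate 3, 43 without RA 54 h replicate 1 and 71 without RA 54 h replicate 2, and its 87 rises to 53 without RA 42 h replicate 3. The 174 rises of the middle step dropped to 108 without RA 66 h replicate 2 or RA 54 h replicate 3 and 110 without RA 54 h replicate 2, and its 42 falls to between 17 and 26 without RA 66 h replicate 1 (17), RA 66 h replicate 2 (25), RA 66 h replicate 3 (22), RA 54 h replicate 1 (22) or RA 54 h replicate 2 (26). The 22 rises of the last step became 3 without RA 78 h replicate 2, 9 without RA 78 h replicate 3, 12, 10 and 5 without RA 66 h replicates 1, 2 and 3, and 34 without RA 54 h replicate 1. Its 2 falls became 1 without RA 78 h replicate 2, RA 78 h replicate 3 or RA 66 h replicate 3, and 7 without RA 54 h replicate 1.

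Within runs of library numbers (42 h to 54 h plus 66 h to 78 h), 251 genes rose (1.44%) and 144 fell (0.826%). The first and last steps share no library, and 5 genes rose in both, which is 5.75% of the first set and 22.7% of the last: Cdh5, Dcx, Gjb2, Serpinb9b and Serpinb9e. No gene fell in both, from sets of 112 and 2. The 144 falls within runs dropped to 77 without RA 78 h replicate 2, 83 without RA 78 h replicate 3, 78 and 95 without RA 42 h replicates 2 and 3, and 81 and 94 without RA 66 h replicates 2 and 3. Untreated 54 h replicate 3 carries a number of the later run while replicates 1 and 2 carry earlier ones. Its level minus theirs had a median of 0.03 (log2 of CPM plus 1) over the 772 rising genes and -0.02 over the 440 falling ones.

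Most of the listed factors that commit progenitors to become neurons rose. This list and those below were written with earlier results of these data known, so their counts describe the members and are no test. Of 27 neurogenic factors tested, 21 rose and none fell, with a median log2 fold change of 2.69 against -0.01 for all genes, and 20 to 22 rose with any 1 library left out. Within runs 17 rose and none fell. Their summed level went from between 181 and 194 CPM at RA 42 h to between 454 and 540 CPM at RA 78 h. In bulk RNA, fewer cells of a type and less RNA per cell cannot be told apart, and the same holds for more of either.

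Nhlh2, a basic helix-loop-helix factor of young neurons, was at 0.513, 0.115 and 0.275 CPM in RA 42 h replicates 1 to 3 and at 24.6, 21.9 and 23.7 CPM in RA 78 h replicates 1 to 3. The groups lay far apart, with 1.22 to 1.62 CPM at 54 h and 10.3 to 12.6 CPM at 66 h in between. The log2 fold change was 6.29 ± 0.23 (SE, adjusted p = 5.4e-08 in edgeR), and the 21 counts of RA 42 h against 2169 of RA 78 h gave a ratio of 80.6 (95% interval 52.6 to 130, counting error only). Neurog1, a proneural factor that starts the programme, rose early, from 0.878 to 1.1 CPM at RA 42 h to 5.09 to 6.2 CPM at 54 h, and reached 12.3, 15.6 and 19 CPM at 78 h. Its step from 42 h to 54 h was 2.43 ± 0.20 (adjusted p = 1.6e-05, edgeR) and its step from 66 h to 78 h 0.51 ± 0.14, which did not pass (adjusted p = 0.074, edgeR). Scrt2, a zinc finger repressor of migrating newborn neurons, rose from a mean of 0.391 to 12.6 CPM and St18, a zinc finger factor, from 0.134 to 5.19 CPM. St18 rested on 10 counts at RA 42 h, with a ratio of 37.4 (95% interval 20.1 to 78.4), and did not pass in a trend over the 4 times with the run of library numbers as a term (adjusted p = 0.18, edgeR). That term splits the 4 times into an early and a late pair, so it overlaps with time and makes the trend less precise. A call lost under it can therefore reflect a wider error, a smaller change or both.

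The 250 bases before the start of Nhlh2 are printed because this was the largest rise of any neurogenic factor. They lie at chr3:102009895-102010144 on the plus strand of GRCm38 (RefSeq annotation), with the E-box, the short motif of basic helix-loop-helix factors, in capitals.
Nhlh2: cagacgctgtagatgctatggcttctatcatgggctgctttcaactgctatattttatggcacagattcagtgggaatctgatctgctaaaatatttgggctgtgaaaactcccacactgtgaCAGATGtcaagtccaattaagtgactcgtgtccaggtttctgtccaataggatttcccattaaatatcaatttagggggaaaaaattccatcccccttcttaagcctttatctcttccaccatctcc
The E-box was searched as CAGCTG or CAGATG on both strands. It stands here on the gene's own strand, from 127 to 122 bases before the start, and is a description of the letters, since 25.5% of all 32851 promoter windows of this length hold 1 or more.

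**Figure D2:**
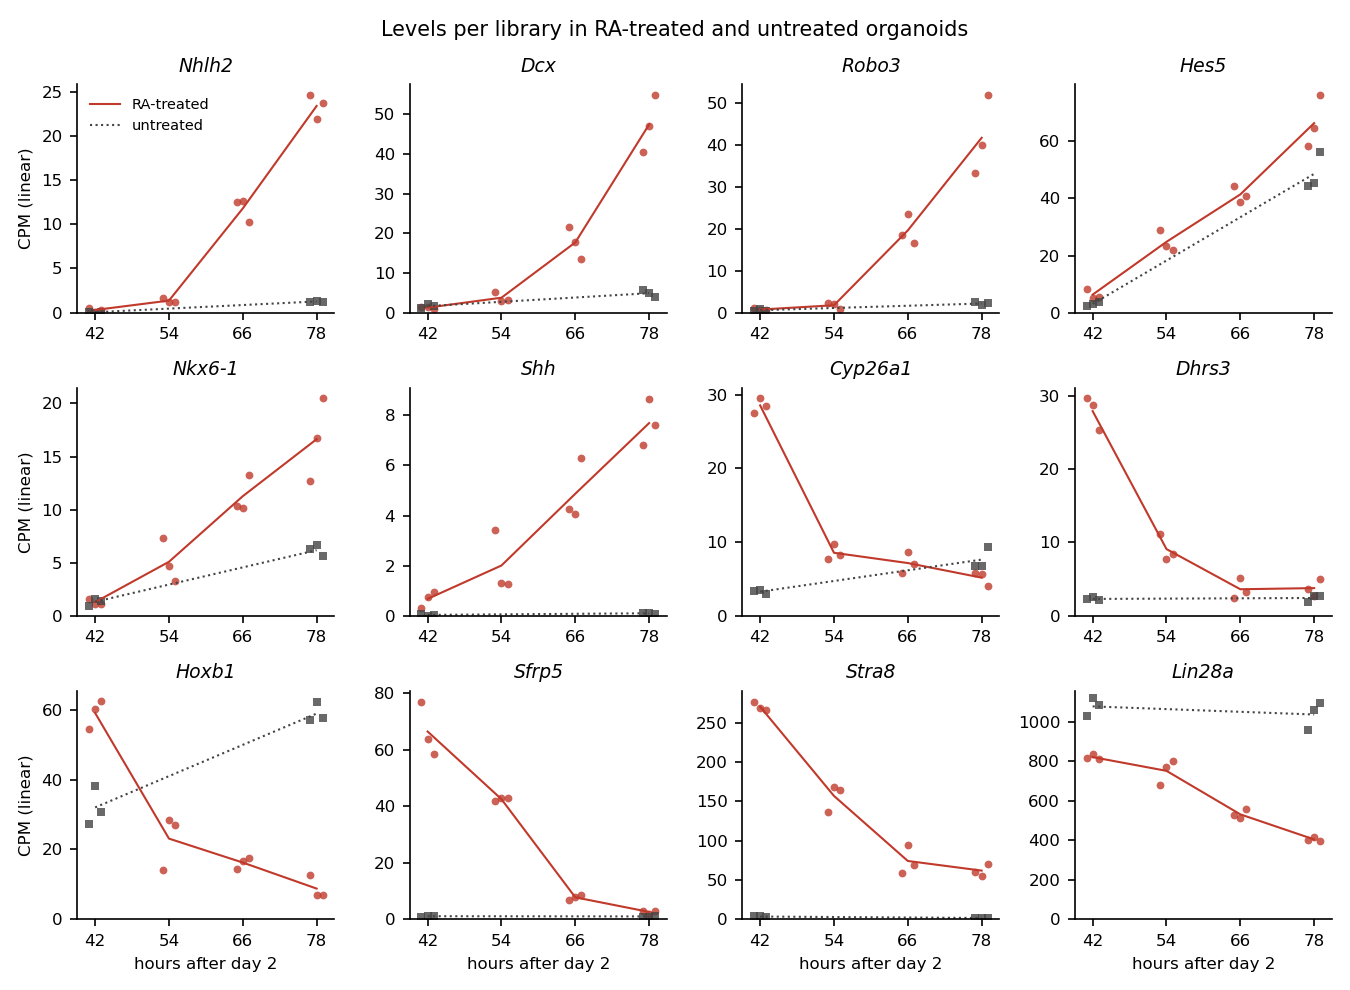
Level in CPM (y axis, one scale per gene) against hours of collection (x axis) for 12 genes, with each library as a point, RA-treated in red and untreated in grey squares. Nhlh2, Dcx, Robo3, Hes5, Nkx6-1 and Shh climb through 54 h and 66 h, and Cyp26a1 drops from 27.5 to 29.6 CPM at 42 h to 7.74 to 9.73 CPM at 54 h and stays low.

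Genes of neurites and synapses followed. Of 30 neuronal structure and synapse genes tested, 16 rose, 1 fell and 13 did not pass, with a median of 1.14, and 15 or 16 rose with any 1 library left out. Within runs 8 rose and 1 fell. Dcx, a microtubule binding protein of migrating neurons, was at 1.49, 1.45 and 0.826 CPM at RA 42 h and at 40.5, 47 and 54.8 CPM at RA 78 h. It passed the test in each of the 3 steps, with 1.57 ± 0.32, 2.25 ± 0.22 and 1.39 ± 0.19 on the log2 scale (adjusted p = 0.0049, 3.4e-05 and 0.0022 in edgeR), and the RA 78 h libraries all lay above those of 66 h (13.6 to 21.7 CPM). Nefm, the medium neurofilament chain, rose from 4.19, 4.12 and 3.15 CPM to 113, 112 and 120 CPM (4.88 ± 0.09, adjusted p = 1.5e-09, edgeR). Its exons overlap those of Nefl on the opposite strand, which held up to 2302 counts, and as the strand setting of the counting is not given in the sources used here, reads of the pair could not be assigned with certainty. Celf3, an RNA binding protein of neurons, rose from a mean of 0.674 ± 0.147 (SD, n = 3) to 10.7 ± 2.15 CPM. Tubb3, the neuronal beta tubulin, rose 3-fold, from 43.1 to 47.8 CPM to 132 to 146 CPM. Against these, Nefh, the heavy neurofilament chain of mature axons, fell from 34.8, 33 and 28.8 CPM to 9.93, 9.11 and 8.16 CPM (-1.86 ± 0.10, adjusted p = 5.9e-07, edgeR).

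Markers of single neuron classes moved in the same direction from very low levels. Of 33 neuron subtype genes tested, 15 rose and 1 fell, with a median of 0.99, and 11 to 14 rose with any 1 library left out (11 without RA 42 h replicate 2). Within runs 5 rose and 1 fell. Gata3, a factor of V2 interneurons that is among the 15, also stands in the list of trophoblast markers. Lhx5, a homeodomain factor of spinal interneurons, was at 0.513, 0.0764 and 0.354 CPM at RA 42 h and at 5.56, 6.04 and 7.04 CPM at RA 78 h, a ratio of 20.2 on 22 counts at 42 h (95% interval 13.2 to 32.5). Sim1, a factor of V3 interneurons, rose from 0.14 to 0.382 CPM to 1.79 to 2.25 CPM, and Isl1, a factor of motor and sensory neurons, from 0.466 to 0.611 CPM to 2.14 to 3.24 CPM. With the run of library numbers as a term, neither passed (adjusted p = 0.035 for Sim1 and 0.13 for Isl1, edgeR). Sst, the precursor of the peptide somatostatin, stood among the largest rises of all genes, from 24 counts to 1537 (ratio 50, 95% interval 33.5 to 78.2), at 16.2, 12.7 and 21.3 CPM in the RA 78 h libraries.

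Receptors and ligands that steer axons rose in part. Of 36 axon guidance and adhesion genes tested, 11 rose and 1 fell, with a median of 0.54, and within runs 5 rose and 1 fell. Robo3, the receptor that lets commissural axons cross the midline, was at 1.03, 0.535 and 0.629 CPM at RA 42 h, at 0.923 to 2.39 CPM at 54 h, at 16.6 to 23.6 CPM at 66 h and at 33.3, 39.9 and 51.8 CPM at RA 78 h (5.82 ± 0.24, adjusted p = 1.1e-07, edgeR). Its largest step was the one from 54 h to 66 h (3.48 ± 0.26), which crosses the runs, and within runs it rose by 2.34 ± 0.45 (adjusted p = 0.0036, edgeR). Epha3, an ephrin receptor, rose from a mean of 0.763 to 11.4 CPM and Dcc, the netrin receptor of commissural axons, from 1.58 to 14.3 CPM. Sema3e, a repellent ligand, fell by 1.23 on the log2 scale, and did not pass with the run as a term (adjusted p = 0.016, edgeR).

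Of 20 neural progenitor markers tested, 6 rose (Sox3, Vim, Hes5, Fabp7, Dbx1 and Dbx2) and none passed as a fall, with a median of 0.64, and within runs 5 rose. Hes5, a Notch target that keeps progenitors undifferentiated, was at 8.11, 5.27 and 5.54 CPM at RA 42 h and at 58.2, 64.7 and 76.2 CPM at RA 78 h, with 21.8 to 29.1 CPM already at 54 h. The log2 fold change was 3.37 ± 0.15 (adjusted p = 1.7e-07, edgeR). Fabp7, a fatty acid binding protein of radial glia, rose from 5.62 to 6.61 CPM to 97.2 to 114 CPM (4.02 ± 0.09). Sox1, a pan-neural progenitor factor, was at 177, 163 and 160 CPM at RA 42 h and 93.8, 96.4 and 95.9 CPM at RA 78 h, a difference of -0.84 ± 0.05 with groups that do not overlap and an adjusted p of 1.7e-06 in edgeR, under the 2-fold limit of the call. Pax6, a factor of the intermediate neural tube, differed by -0.45 ± 0.09 (149 to 170 CPM against 103 to 137 CPM), and Sox2 by 0.17 ± 0.06 (adjusted p = 0.06, edgeR). Dbx2, a factor of the middle domain of the tube, rose by 1.51 ± 0.22. With the run of library numbers as a term its estimate was 1.94, and it did not pass (adjusted p = 0.016, edgeR). Nor did Dbx1, with an estimate of 2.23 (adjusted p = 0.055, edgeR).

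Of 19 Notch pathway genes tested, 8 rose and none fell, with a median of 0.82 (5 within runs): the ligands Dll1, Dll3 and Dll4, the targets Hes5, Hey1, Hey2 and Nrarp, and Lfng, a sugar transferase that tunes the receptor. This list shares the Dll ligands with the neurogenic factors and Hes5 with the progenitor markers. Nrarp, a feedback inhibitor of Notch, was at 6.2, 6.91 and 6.96 CPM at RA 42 h and at 44.1, 53.3 and 53.7 CPM at RA 78 h (2.87 ± 0.10, adjusted p = 5.4e-08, edgeR). Its 3 steps were 1.13 ± 0.10, 1.15 ± 0.09 and 0.59 ± 0.08, a climb through every interval. Dll4 rose by 2.69 ± 0.27 between the ends, and did not pass with the run as a term (adjusted p = 0.13, edgeR).

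Genes of ventral and of dorsal domains rose together. Of 16 floor plate and ventral progenitor genes tested, 10 rose and none fell, with a median of 1.90, and 7 to 9 rose with any 1 library left out (7 without RA 78 h replicate 3). Within runs 4 rose and 1 fell. Shh, the ventral signal released by notochord and floor plate, was at 0.326, 0.764 and 0.944 CPM at RA 42 h and at 6.81, 8.67 and 7.6 CPM at RA 78 h (3.43 ± 0.26, adjusted p = 5.9e-06, edgeR). Nkx6-1, a ventral progenitor factor, rose from 1.63, 1.15 and 1.1 CPM to 12.7, 16.7 and 20.5 CPM (3.66 ± 0.22). Both groups of 3 were separate in each gene, and RA 54 h replicate 1, at 3.43 CPM for Shh and 7.32 CPM for Nkx6-1, lay above the other 54 h libraries. Olig2, a factor of motor neuron progenitors, rose from 26 counts at RA 42 h to 554 at RA 78 h (ratio 16.6, 95% interval 11.2 to 25.7), at 4.23, 5.19 and 8.96 CPM. Foxa2, which defines the floor plate, was at 7.67 to 10.2 CPM and 10.3 to 13.1 CPM, a difference of 0.39 ± 0.14 that did not pass (adjusted p = 0.048, edgeR). None of the 10 Hedgehog response genes passed in either direction, with a median of 0.13 and values from -0.32 to 0.73. With the run of library numbers as a term, Nkx6-1 and Shh did not pass (adjusted p = 0.015 and 0.031, edgeR).

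Of 24 dorsal neural tube genes tested, 9 rose and none fell, with a median of 0.77, and 9 or 10 rose with any 1 library left out. Within runs 3 rose and none fell. Pax3, a paired box factor of dorsal progenitors, was at 12.4, 11.2 and 9.79 CPM at RA 42 h and at 50.6, 52.3 and 45.9 CPM at RA 78 h (2.12 ± 0.09, adjusted p = 1.4e-07, edgeR). The 66 h libraries, at 38.6 to 44.9 CPM, were already close to those of 78 h. Msx3, a dorsal homeobox factor, rose from a mean of 5.35 to 21.8 CPM, and Wnt3, a ligand of the dorsal midline, from 1.77 to 6.42 CPM. Pax3 and Msx3 did not pass with the run as a term (adjusted p = 0.016 and 0.072, edgeR). Among 22 Wnt targets and antagonists, 6 rose and 1 fell. Wnt7a, a ligand of the ventricular zone, rose from 0.802 to 1.46 CPM to 11 to 17.9 CPM (3.72 ± 0.25).

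Sfrp5, a secreted Wnt antagonist, was the largest fall of all genes under the naming rule. It was at 77, 63.9 and 58.4 CPM at RA 42 h, at 41.7 to 42.9 CPM at 54 h, at 6.89 to 8.57 CPM at 66 h and at 2.93, 1.91 and 2.77 CPM at RA 78 h. The fall was 26.6-fold (-4.73 ± 0.15, adjusted p = 2.7e-08, edgeR) and its steps within the runs were -0.65 ± 0.10 from 42 h to 54 h, under the size limit, and -1.63 ± 0.15 from 66 h to 78 h, which passed. Other large falls were those of ccdc198 (-3.54 ± 0.19), Tll1, a metalloproteinase of the tolloid family (-3.39 ± 0.15), the collagen receptor subunit Itga2 (-3.22 ± 0.23), Slfn5 (-3.09 ± 0.26), the tight junction protein Cldn2 (-3.08 ± 0.27) and Ano4 (-3.01 ± 0.39). Tll1 went from 8.69 to 9.32 CPM to 0.819 to 0.945 CPM, with most of its fall done by 66 h (0.929 to 1.21 CPM). Cldn2 did not pass with the run as a term (adjusted p = 0.15, edgeR).

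Several genes that RA is known to induce fell, while most of the RA receptors and binding proteins did not pass. Of 18 genes of RA synthesis, breakdown, binding and receptors tested, 4 fell, 1 rose and 13 did not pass, with a median of -0.31. Within runs 3 fell and 1 rose. Cyp26a1, the enzyme that oxidises and so destroys RA, was at 27.5, 29.6 and 28.5 CPM at RA 42 h and at 5.82, 5.66 and 4.06 CPM at RA 78 h. All 3 late libraries lay far below the early ones, and the 54 h libraries, at 7.74, 9.73 and 8.19 CPM, were already near the late level. The log2 fold change was -2.49 ± 0.12 (adjusted p = 3.3e-07, edgeR), of which -1.75 ± 0.14 fell between 42 h and 54 h within 1 run. Dhrs3, which turns retinaldehyde back to retinol, fell from 29.7, 28.7 and 25.3 CPM to 3.68, 2.66 and 5.01 CPM (-2.92 ± 0.17), Stra8, a gene named for its induction by RA, from 277, 269 and 266 CPM to 59.9, 54.7 and 70.8 CPM (-2.17 ± 0.08), and Stra6, the retinol uptake receptor, from 58.8 to 74.4 CPM to 16.5 to 18.2 CPM (-1.96 ± 0.09). Rarb, an RA receptor that RA itself induces, was at 53.2 to 59.5 CPM and 29.7 to 39.3 CPM (-0.80 ± 0.10), under the size limit. Aldh1a1, an enzyme that makes RA, was the member that rose, from 2.98, 2.25 and 2.6 CPM to 5.94, 4.91 and 5.64 CPM (1.05 ± 0.16). That call was lost without RA 78 h replicate 1 (0.99) or RA 42 h replicate 2 (0.95), and neither Aldh1a1 nor Dhrs3 passed with the run as a term (adjusted p = 0.04 and 0.032, edgeR).

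Cyp26b1, the other main RA-destroying enzyme of the neural tube, was at 3.78, 3.32 and 4.4 CPM at RA 42 h and at 4.29, 5.84 and 2.28 CPM at RA 78 h. The groups overlap, and the difference was 0.08 ± 0.29 on the log2 scale (adjusted p = 0.86, edgeR), with -0.25 without RA 78 h replicate 2 and -0.02 without RA 42 h replicate 2. In untreated organoids the same gene went from 1.69, 2.93 and 2.34 CPM at 42 h to 102, 87.1 and 141 CPM at 78 h.

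The 250 bases before the start of Cyp26a1 are printed because RA receptors are known to act through paired half-sites near this gene. They lie at chr19:37697558-37697807 on the plus strand of GRCm38 (RefSeq annotation), with a match to DR5, the direct repeat with a spacer of 5 bases, in capitals.
Cyp26a1: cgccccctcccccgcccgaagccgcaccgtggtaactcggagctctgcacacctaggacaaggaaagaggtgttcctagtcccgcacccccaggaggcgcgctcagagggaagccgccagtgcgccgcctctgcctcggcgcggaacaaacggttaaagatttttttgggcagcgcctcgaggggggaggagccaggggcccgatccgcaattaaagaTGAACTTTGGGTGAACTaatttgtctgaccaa
The half-site was searched as AGGTCA and in 3 variant forms (AGTTCA is a variant of the RA response element, GGGTCA is a form that begins with G, and GGTTCA combines both changes), in any pair set 5 bases apart in the same orientation, on both strands. The match is on the opposite strand, from 32 to 16 bases before the start. Of all 32851 promoter windows of this length, 29 (0.0883%) hold a DR5 match in these letters, which is a description and no measure of binding.

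Hox genes set position along the body axis. Of 27 Hox genes tested, 7 fell, among them Hoxb1, Hoxd1, Hoxa5, Hoxb5, Hoxc13 and Hoxd13, and none rose, with a median of -0.53. The 7 falls became 4 without RA 78 h replicate 2 and 4 without RA 42 h replicate 2. Within runs 2 of 29 tested fell and none rose, with a median of -0.10. Hoxb1, which marks rhombomere 4 and is a direct RA target, was at 54.4, 60.2 and 62.6 CPM at RA 42 h and at 12.5, 6.86 and 6.86 CPM at RA 78 h (-2.78 ± 0.19, adjusted p = 2.9e-06, edgeR). Hoxa5, of the lower hindbrain and neck level, fell from 26.7 to 28.4 CPM to 8.77 to 11.4 CPM (-1.49 ± 0.10), and did not pass with the run as a term (adjusted p = 0.017, edgeR). Hoxa2, of the anterior hindbrain, was at 11.4 to 13.4 CPM and 18.6 to 21.3 CPM (0.60 ± 0.09), above in all 3 libraries and under the size limit.

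Of 16 hindbrain segment genes tested, 3 fell and none rose (1 rose without RA 78 h replicate 1 or RA 42 h replicate 1). Without RA 42 h replicate 3 only 2 fell, and within runs none passed in either direction (median -0.06). Gbx2, of the anterior hindbrain, fell from 27.6 to 33.4 CPM to 13.8 to 14.5 CPM, and overlaps an opposite-strand transcript of up to 553 counts. Of 7 forebrain and midbrain genes that could be tested, En2, a midbrain and anterior hindbrain factor, rose (1.61 on the log2 scale), and it did not pass with the run as a term (adjusted p = 0.045, edgeR). Among 12 posterior axis genes, Cdx2, also listed under trophoblast, and Wnt5a rose and Wnt8a, Nkx1-2 and Cdx1 fell, with only 1 fall left without RA 78 h replicate 2. Within runs 1 of these 12 fell and none rose. With the run as a term, Cdx2, Wnt5a, Nkx1-2 and Cdx1 did not pass (adjusted p = 0.02, 0.031, 0.052 and 0.5, edgeR). Wnt8a, a ligand of the primitive streak, went from 20.4, 23.7 and 24.8 CPM to 5.97, 4.88 and 3.26 CPM (-2.31 ± 0.18).

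**Figure D3:**
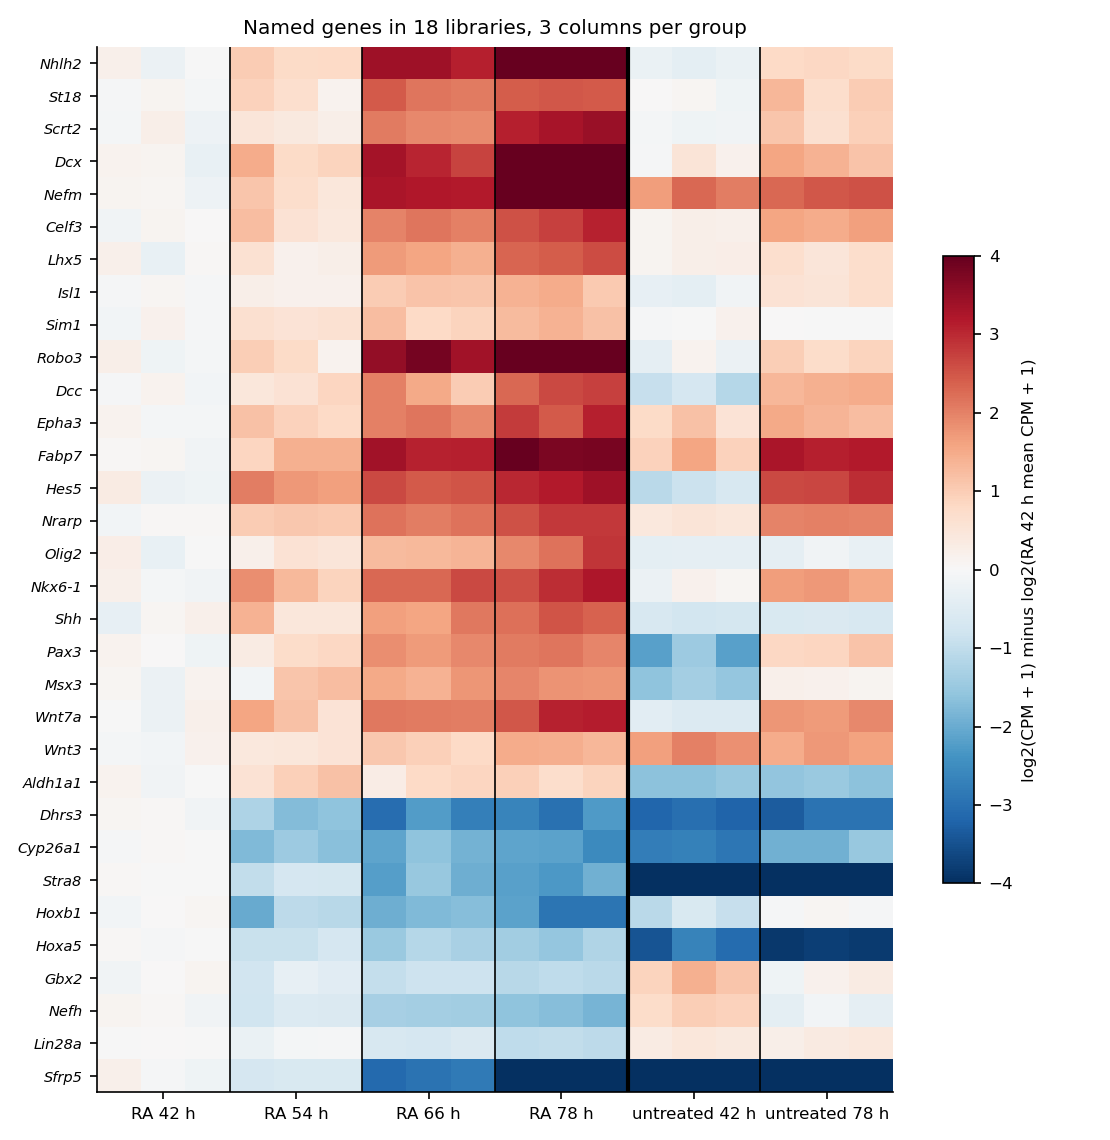
Level of 32 genes (rows) in 18 libraries (columns: RA-treated at 42, 54, 66 and 78 h, untreated at 42 and 78 h), as log2(CPM + 1) relative to the mean of the RA 42 h libraries, with red above, blue below and the colour saturated at 4 in either direction. The neuronal rows are red at RA 78 h, with the Robo3 libraries of RA 54 h overlapping those of RA 42 h, and Cyp26a1, Dhrs3 and Sfrp5 turn blue.

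Lists for pluripotency, cell division and metabolism held from 0 to 1 call each, where 4.62% of all genes rose and 2.63% fell. The longest, of ribosomal protein and nuclear oxidative phosphorylation genes, held none, which is below these shares. Of 26 pluripotency and epiblast genes tested, only Lin28a passed, and none rose (2 fell without RA 78 h replicate 1). Lin28a, an RNA binding protein that blocks the let-7 microRNA, fell from 817, 835 and 809 CPM to 402, 415 and 393 CPM (-1.06 ± 0.04, adjusted p = 1.2e-07, edgeR), just past the size limit, and a trend with the run as a term gave -0.85. Pou5f1, the pluripotency factor Oct4, was at 56.4, 79.1 and 75.3 CPM at RA 42 h and at 122, 99.2 and 63.3 CPM at RA 78 h, groups that overlap (0.39 ± 0.20, adjusted p = 0.15, edgeR). None of 26 S phase genes, 26 mitosis genes, 17 p53 target genes, 85 ribosomal protein genes or 77 nuclear oxidative phosphorylation genes passed in either direction, with medians of -0.06, -0.10, -0.29, -0.04 and 0.07. Mki67, a marker of cycling cells, was at 505 to 603 CPM and 588 to 611 CPM. Of 12 cell cycle inhibitors, Cdkn1c, which holds newborn neurons out of the cycle, rose from 134, 109 and 120 CPM to 367, 341 and 389 CPM (1.56 ± 0.08, adjusted p = 2.8e-07, edgeR). Of 30 glycolysis and hypoxia genes only Ndrg1 passed (2 rose without RA 78 h replicate 3, and 1 fell without RA 78 h replicate 1 or RA 42 h replicate 1), of 24 cholesterol synthesis genes 1 fell and none rose, and none of 15 motile cilium genes (1 fell without RA 42 h replicate 1) or 9 mitochondrially encoded genes did. Of 18 histone genes of the S phase type tested, 1 rose (Hist2h2be), and without RA 78 h replicate 1 or 2, or without any of the RA 42 h replicates, none did. Most members of the last 2 lists could not be assessed. Of 37 mitochondrially encoded genes, 28 had no count in any of the 6 libraries, and the list summed to at most 26.2 CPM. The histone list held 70 genes and summed to at most 27.5 CPM.

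Other lists held a few calls each, where 4.62% of all genes rose and 2.63% fell. Of 29 FGF and ERK feedback genes, 4 rose and 1 fell, and 2 rose without RA 42 h replicate 1. Fgf18 was one of the 4 and was lost without RA 78 h replicate 3, RA 42 h replicate 1 or RA 42 h replicate 2 (adjusted p = 0.012, 0.011 and 0.02, edgeR). Of 24 amino acid and stress response genes, Slc7a11, Vldlr and Chac1 rose, and Slc7a11 was lost without RA 78 h replicate 1 or 2 or RA 42 h replicate 1 or 3 (adjusted p = 0.01 to 0.016, edgeR). Fos and Zfp36 rose among 17 immediate early genes. Of 22 glial and radial glial genes, Sox9 and Slit2 rose, and Gfap, Bcan and Nfix fell, Gfap and Bcan from at most 1.1 and 4.71 CPM. With the run as a term, Fgf18, Slc7a11, Vldlr and Chac1 did not pass (adjusted p = 0.57, 0.37, 0.068 and 0.025, edgeR). Zfp36, Sox9, Bcan and Nfix did not pass either (adjusted p = 0.012, 0.043, 0.039 and 0.48, edgeR).

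The counts for genes of lumen and matrix, structures that give these organoids their shape, were near the 4.62% of all genes that rose. Of 25 apical polarity and lumen genes, Crb1, an apical membrane protein, was the only call (from 0.839 to 0.944 CPM to 2.55 to 3.05 CPM), and it did not pass with the run as a term (adjusted p = 0.075, edgeR). Of 29 basement membrane and matrix genes, Col3a1 and Postn rose from low levels, Col3a1 from 17 counts to 193. Col3a1 did not pass with the run as a term (adjusted p = 0.028, edgeR). Of 10 LPA pathway genes, Enpp2, the secreted enzyme autotaxin that makes lysophosphatidic acid, rose from 0.606, 0.955 and 0.708 CPM to 3.39, 3.62 and 2.73 CPM (2.05 ± 0.23, adjusted p = 9.4e-05, edgeR). The 54 h libraries lay between 1.25 and 1.61 CPM and those of 66 h between 2.35 and 2.86 CPM, and the call was lost with the run as a term (adjusted p = 0.037, edgeR). Untreated organoids held more of it, at 15.3 to 17.6 CPM at 42 h and 9.93 to 13.4 CPM at 78 h.

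**Figure D4:**
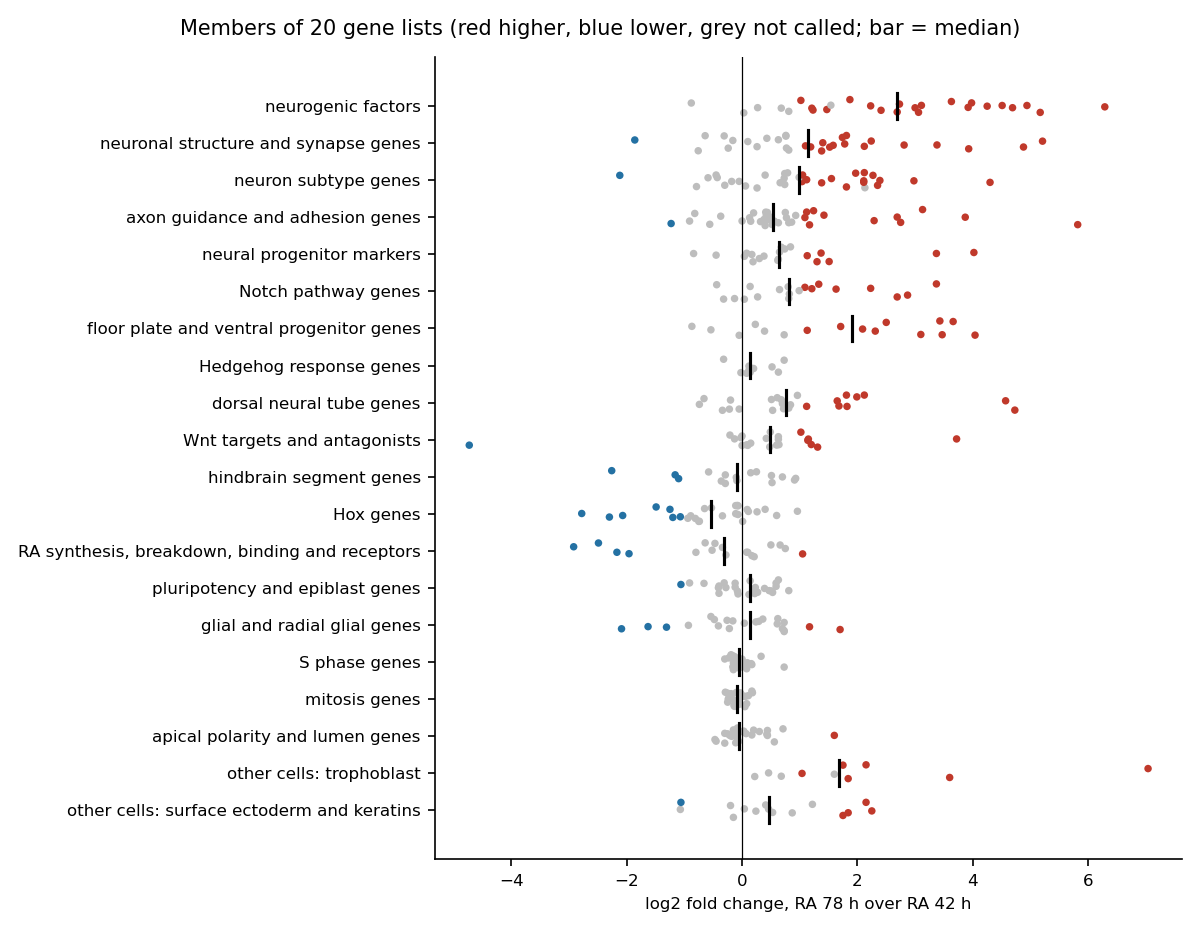
Log2 fold change from RA 42 h to RA 78 h (x axis) of every tested member of 20 gene lists (lines), with each member as a point and the list's median as a bar. Neurogenic factors lie furthest to the right with a median of 2.69, ventral genes follow at 1.90, Hox genes lie to the left at -0.53, and S phase and mitosis genes cluster at 0.

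Among markers of cells outside the neural tube, those of trophoblast and some keratins rose. Of 10 trophoblast markers tested, 6 rose and none fell, with a median of 1.68, and their summed level went from between 93.8 and 103 CPM at RA 42 h to between 227 and 234 CPM at RA 78 h. Of 15 surface ectoderm and keratin genes, 4 rose and 1 fell (none fell without RA 78 h replicate 1 or 2, or RA 42 h replicate 1 or 2), and the summed level went from between 516 and 570 CPM to between 989 and 1062 CPM. Krt7, listed under both, was at 19, 17 and 20.4 CPM at RA 42 h and at 81.5, 83.8 and 92.1 CPM at RA 78 h (2.15 ± 0.08, adjusted p = 6.3e-08, edgeR), and the simple epithelial keratin Krt8 at 66.8, 65.9 and 58 CPM and 223, 213 and 222 CPM. Hand1, a factor of trophoblast giant cells and of heart, rose from 1.26 to 1.44 CPM to 15.2 to 18.1 CPM (3.60 ± 0.13). Tpbpa, a marker of the spongiotrophoblast, had no count in any RA 42 h library and a mean of 0.603 CPM at RA 78 h. These values stand beside each neuronal rise above, and their part in it was not tested.

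Members of the Serpinb9 family were among the largest rises of all genes. Serpinb9e, a serine protease inhibitor of a gene family expressed in the placenta, was at 0, 0.0764 and 0.118 CPM at RA 42 h and at 13.5, 12 and 12.2 CPM at RA 78 h, a ratio of 182 on 5 early counts (95% interval 77.9 to 562). Serpinb9b rose from 1.4, 1.83 and 2.01 CPM to 33.3, 33.6 and 39.3 CPM (4.29 ± 0.13, adjusted p = 2.7e-08, edgeR), and passed in both the first step (1.89 ± 0.20) and the last (1.05 ± 0.14). Serpinb9f and Serpinb9g had no count at RA 42 h and were at least 55.1-fold and 48.1-fold higher at RA 78 h, against a floor of 3 counts over the group. Serpinb9c and Serpinb9d had 1 and 2 counts at RA 42 h, with ratios of 171 (95% interval 30.3 to 6780) and 80.8 (22.1 to 671). These genes are related members of 1 family on chromosome 13, their identity was not measured here and the handling of reads with several matches is not given, so each value is uncertain. Serpinb9c, Serpinb9d and Serpinb9f did not pass with the run as a term (adjusted p = 0.012, 0.016 and 0.014, edgeR).

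Cdh5, the cadherin of endothelial cells, was at 0.373, 0.229 and 0.315 CPM at RA 42 h, at 1.33 to 2.46 CPM at 54 h, at 7.63 to 10.5 CPM at 66 h and at 24.8, 23.8 and 23.6 CPM at RA 78 h (6.26 ± 0.15, adjusted p = 6.1e-09, edgeR). Only 6 of the 12 endothelium and blood markers had enough counts to test, Gata1 was the other that rose, and the embryonic globin Hbb-bh1 was at 0 in all 6 libraries. That second call was lost without RA 78 h replicate 1 or 2 or any RA 42 h replicate. Syna, a syncytin that fuses placental cells, rose from 14 counts to 703 (ratio 39.2, 95% interval 23.2 to 72). Csf1r, a receptor of macrophages that trophoblast also carries, rose from 4 counts to 294 (ratio 57.3, 95% interval 22.2 to 212), and its exons overlap those of Hmgxb3 on the opposite strand, which held up to 2635 counts. Of the other lists, 3 of 11 neural crest genes rose (2 without any 1 of RA 78 h replicates 1 and 2 and the RA 42 h replicates), 2 of 13 mesoderm genes rose and 1 fell, and 2 of 9 endoderm genes fell. The mesoderm rises were both lost without RA 78 h replicate 1 or 2 or RA 42 h replicate 1 or 3.

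The change in RA-treated organoids was set against the change in untreated organoids over the same hours and runs of library numbers. In untreated organoids 919 genes rose (5.21%) and 524 fell (2.97%) of 17647 tested. The change from 42 h to 78 h was higher with RA in 469 genes (2.66%) and lower in 438 (2.48%), by the test of the difference itself. Among neurogenic factors 11 of 27 had a higher change with RA and none a lower one. Of 30 neuronal structure genes 11 had a higher change and none a lower one, of 16 hindbrain segment genes 9 had a lower one, of 27 Hox genes 9, and of 19 RA pathway genes 8. Outside these, 9 of 26 pluripotency genes had a higher change and none a lower one, 9 of 29 FGF and ERK feedback genes had a higher one and 1 a lower one, 6 of 20 progenitor markers had a lower one and 1 a higher one, and axon guidance genes were divided, with 6 higher and 7 lower of 36. A higher change with RA can also be a fall without it. Of the pluripotency genes none rose with RA, and 10 fell in untreated organoids. Their summed level without RA went from between 6270 and 6732 CPM to between 4021 and 4412 CPM, against 2557 to 2885 CPM at RA 42 h. Of the FGF and ERK feedback genes 4 rose and 1 fell with RA, and 2 rose and 5 fell without it.

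Several neuronal genes rose by more with RA than without it. Nefm in untreated organoids was at 14.5, 22.7 and 19 CPM at 42 h and 22.7, 25.7 and 27.1 CPM at 78 h, above RA 42 h at the start and far below RA 78 h at the end, and the difference of the changes was 4.50 ± 0.19 (adjusted p = 2.6e-09, edgeR). Dcx went from at most 2.21 CPM to 5.79, 4.97 and 3.93 CPM without RA, and the difference was 3.69 ± 0.35. Robo3 reached 1.87 to 2.45 CPM (difference 3.97 ± 0.50), and Tubb3 63.8 to 70 CPM (difference 1.45 ± 0.09). Nhlh2, by contrast, also climbed from its floor without RA, to 1.23 to 1.31 CPM from at most 0.0786 CPM, and its difference of 1.79 ± 0.97 did not pass (adjusted p = 0.21, edgeR). Hes5 and Neurog1 likewise rose in both conditions, with differences of -0.56 ± 0.24 and -0.39 ± 0.50 that did not pass (adjusted p = 0.11 and 0.63, edgeR).

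Some genes with a lower change under RA were lower at 78 h with RA and higher at 78 h without it. Cyp26a1 went from 3.38, 3.5 and 2.96 CPM to 6.73, 6.78 and 9.37 CPM in untreated organoids, so that at 78 h the untreated libraries lay above the RA-treated ones (difference of the changes -3.67 ± 0.21, adjusted p = 2.2e-08, edgeR). Hoxb1 was at 27.3 to 38 CPM at 42 h and 57.1 to 62.1 CPM at 78 h without RA, under the size limit (difference -3.61 ± 0.23). Sox1 was at 69.5, 110 and 75.8 CPM and 150, 175 and 183 CPM without RA, also under the size limit (difference -1.79 ± 0.17). Others rose without RA from lower levels than with it. Dbx1, of the V0 progenitor domain, went from 16.1 to 21.3 CPM to 37.4 to 64.8 CPM with RA and from 0.216 to 0.304 CPM to 18.4 to 23.1 CPM without (difference -4.95 ± 0.41, adjusted p = 6.4e-07, edgeR). Cp, ceruloplasmin, rose by 1.03 ± 0.14 with RA, a call lost without RA 78 h replicate 1 (0.96) or RA 42 h replicate 2 (0.92), and by 5.53 ± 0.32 without RA. The rise of Cp with RA did not pass with the run as a term (adjusted p = 0.13, edgeR). Exons of Cp overlap those of Hps3 on the opposite strand, at up to 584 counts. Cyp26b1 had the lowest difference of the genes named, -5.44 ± 0.41.

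Of 10 trophoblast markers 4 had a higher change with RA and none a lower one, and of 16 surface ectoderm and keratin genes 7 had a higher change and 1 a lower one. Without RA, 4 of these 16 fell and none rose. Their summed level there went from between 811 and 979 CPM to between 448 and 523 CPM. Krt8 was at 15.8, 17.3 and 19.1 CPM at 42 h and 17.4, 19.7 and 17.1 CPM at 78 h in untreated organoids, groups that overlap, and the difference of the changes was 1.74 ± 0.11 (adjusted p = 5.1e-08, edgeR). Serpinb9b stayed between 1.1 and 2.27 CPM without RA at both times (difference 4.51 ± 0.32), and Plet1, a surface protein of trophoblast and epithelial progenitors, between 0.502 and 1.29 CPM (difference 4.47 ± 0.43).

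**Figure D5:**
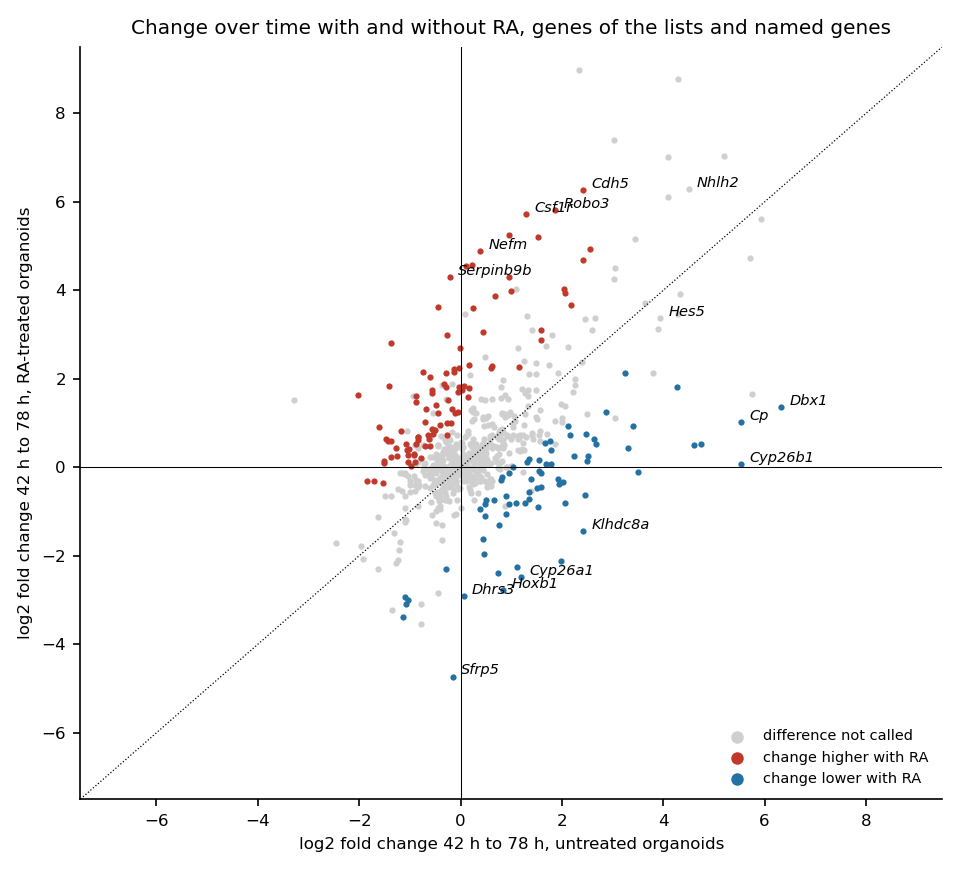
Log2 fold change from 42 h to 78 h in untreated organoids (x axis) against that in RA-treated organoids (y axis), for 705 genes. Nefm and Serpinb9b lie high on the y axis near 0 on the x axis, and Cyp26b1 and Dbx1 lie far to the right.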

How the data were processed

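Poly(A) RNA of RA-treated and untreated organoids was sequenced by the authors as single-end reads of directional libraries. The deposited values are raw counts per Ensembl gene and library, not normalized, which the authors made with featureCounts (Subread 1.6.2) from STAR alignments to GRCm38. Trim Galore 0.5.0 and a Bowtie 2 (2.3.4.1) filter against abundant sequences came before the alignment. The strand setting of the counting and the handling of reads with several matches are not given in the sources used here. The table held 54532 genes in 45 libraries, 54409 of them with a symbol. Columns were matched to samples by library number and title, and groups were taken from the labels.

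Counts were fitted with edgeR 4.0.16 (R 4.3.3), quasi-likelihood, with TMM scaling and filterByExpr (minimum count 10, total 15), and a gene was called where the adjusted p was under 0.01 and the fold change above 2-fold, as in the study. The comparison of RA 78 h with RA 42 h was fitted on its 6 libraries, the steps and the within-run contrast on the 12 RA libraries, and the difference from untreated organoids on 12 libraries. Levels in CPM were scaled by TMM over all 45 libraries. The fitted fold changes used a prior count of 0.125. Counting intervals are exact at 95% and cover counting error only, and a group at 0 was given a floor of 3 counts over the group. Genes were named by a rule: up to 3 called members per direction of each list (groups not overlapping, mean of at least 1 CPM), the 10 largest rises and falls over all genes, 5 genes per direction with the largest difference from untreated, and list members on which an account turns, some of which were picked after their values were seen. The members and lists were chosen with earlier results of these data known. Alternatives were RLE and total scaling, other filters, glmTreat, DESeq2 1.42.0, larger fits, a replicate block, a linear trend with the run of library numbers as a term, and each library left out. The list counts with each library left out were added after seeing the data. On simulated data edgeR recovered 86.7% of genes changed by 1.5 on the log2 scale and 100% of those changed by 2 in the comparison of 78 h with 42 h, among 16406 genes, with 0 false calls. For the within-run contrast it recovered 74.7% and 85.7% among 17103 genes with 0 false calls, and for the difference from untreated 73.2% and 86.6% among 17190 genes with 2 false calls. These simulations changed few genes in otherwise equal groups and held no difference between runs of library numbers. Their false calls therefore do not measure those that such a difference could bring. p-values measure only the spread between the 3 samples of each group. Promoter windows came from RefSeq on GRCm38 (27025 genes). The study's other groups were not used here beyond the scaling, the fit of all 45 libraries and the untreated 54 h libraries. Some genes that the naming rule picked are not reported here.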

Additional observations from a re-analysis of the deposited data

Results flagged for a closer look

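The change from 42 h to 78 h differed between RA-treated and untreated organoids, by an edgeR test of the difference itself, in 469 genes with a higher change under RA and 438 with a lower one. Among the genes named, the difference was in favour of RA, on the log2 scale, for Serpinb9b (4.51), Nefm (4.50), Plet1 (4.47), Csf1r (4.44), Syna (4.29), Robo3 (3.97), Cdh5 (3.86), Dcx (3.69), Hand1 (3.36), Enpp2 (2.67), Krt8 (1.74) and Tubb3 (1.45). It went the other way for Cyp26b1 (-5.44), Dbx1 (-4.95), Sfrp5 (-4.58), Cp (-4.50), Klhdc8a (-3.86), Cyp26a1 (-3.67), Hoxb1 (-3.61), Dhrs3 (-2.97), Stra6 (-2.42), Pax6 (-2.03) and Sox1 (-1.79). Csf1r and Syna had few counts at 42 h, with SE of 1.06 and 0.85. Enpp2 rose with RA and differed in untreated organoids by -0.61 ± 0.13, and Pax6 differed by -0.45 ± 0.09 with RA and rose by 1.59 ± 0.12 without it.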

How the results depend on the processing

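Of 91 named genes, all kept their direction and side of the thresholds under RLE scaling, library totals, no filter and DESeq2, and 71 of 71 that remained with at least 10 counts in every library did. Under glmTreat 63 did, and 86 to 90 with 1 library left out. The trend with the run of library numbers as a term kept 43, with 46 calls lost. Most lost calls kept an estimate over 1 in size, among them Dbx2 (1.94) and Nkx6-1 (3.11). Others did not, among them Nfix (-0.46) and Fgf18 (0.68). Under this trend 2 signs turned (Sox2 -0.04 and Cyp26b1 -2.28, neither called in the comparison of the ends). Cyp26b1 also turned without RA 78 h replicate 2 (-0.25) and RA 42 h replicate 2 (-0.02), and reached at most 0.36 with any 1 library left out. The cause was not tested.

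Counts of genes are given as higher and lower. At an adjusted p under 0.05 with no minimum fold, they were 3154 and 2871 for 78 h against 42 h, 1843 and 1434 within runs, 1780 and 2126 for the difference from untreated, 2108 and 1550 from 42 h to 54 h, 1232 and 1028 from 54 h to 66 h, and 278 and 132 from 66 h to 78 h. With glmTreat they were, in the same order, 305 and 80, 23 and 2, 98 and 100, 1 and 0, 16 and 2, and 0 and 0. The trend with the run as a term gave 280 and 132. With no filter they were 379 and 331 within runs, 146 and 236, 314 and 75, and 78 and 15 for the 3 steps. At least 10 counts in every library gave 115 rises from 54 h to 66 h. For the last step DESeq2 gave 42 and 7, and RLE and library totals 1 fall each.

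With 1 library left out, falls ranged from 293 to 466 for 78 h against 42 h and from 77 to 210 within runs. Rises and falls ranged from 53 to 96 and 38 to 126 for the first step, 108 to 172 and 17 to 40 for the second, and 3 to 34 and 1 to 7 for the last.

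Replicate numbers were tested as a pairing. Same-numbered libraries of RA 42 h and RA 78 h correlated at -0.377, 0.0563 and -0.346 in their deviations from the group means. Libraries with different numbers correlated at -0.0705 to 0.41. Deviations from a mean of 3 libraries are tied to one another, so these values cannot decide whether a number marks a shared origin. With a replicate block, 281 genes fell between 42 h and 78 h, 70 and 24 in the first and second steps, and 1 in the last. Slc7a11 was the named gene lost (adjusted p = 0.012, edgeR).

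Genes with under 30 counts over the RA 42 h libraries have wide counting intervals, and 3 samples per group limit the precision of each difference.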
